A study of Mus musculus with 15 samples.

Results

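The genes described here are 10 transcription regulators of the nephron progenitor, chosen by name: Cited1, Cited2, Meox1, Meox2, Osr1, Osr2, Sall1, Wt1, Pax2 and Uncx. Each was read from the array feature (probe set) that is assigned to that symbol alone, and each of the 10 had exactly 1 such probe set, among 19938 genes with a probe set of a single symbol. The study profiled EGFP-positive cells that were sorted from the kidneys of newborn Tg(Crym-EGFP)82Gsat mice of strain CD-1, which carry an EGFP reporter on a bacterial artificial chromosome under the control of Crym. The 15 samples covered postnatal days P0, P1, P2, P3 and P4, with 3 pools of about 4 kidneys a day, and all pups had been fostered to CD-1 females and were of unstated sex. The labels call the sorted cells cap mesenchyme at P0 to P3 (12 pools) and renal vesicle at P4 (3 pools), so that the age and the labelled compartment change together at P4 and cannot be told apart. The series' design text speaks of cap mesenchyme on all 5 days, and the sample labels were followed. The sort selects on activity of the Crym reporter, and the endogenous Crym value itself was 11.8-fold lower at P4 than over P0 to P3. Crym also fell within P0 to P3, with a log2 slope of -0.44 per day (limma adjusted p = 6.53e-04). Its log2 difference between P2 and P3 was -1.13 (limma adjusted p = 0.021). No gate of the sort is stated, and the labels do not say whether the pools of 1 day had different litters, so p-values cover only the spread among these pools, which may be technical. In sorted bulk samples, fewer cells of a type and less RNA per cell cannot be told apart.

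Nephrons form from a self-renewing cap of mesenchymal cells around each tip of the branching ureteric bud. Cells of the cap either remain progenitors or are induced to become a renal vesicle, the first epithelial stage of the nephron. In the mouse, progenitors are used up within days after birth. Several of the factors described here are needed to establish or keep the progenitor state (Osr1, Sall1, Pax2, Wt1), some are used as marks of the uncommitted cap (Cited1, Meox1), and others act again in the epithelium or in podocytes (Wt1, Pax2). Osr1 and Osr2 are odd-skipped-related zinc finger factors, Meox1 and Meox2 are mesenchyme homeobox factors best known from somite patterning, and CITED1 and CITED2 bind no DNA themselves but act through the coactivators CBP and p300.

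Values are the deposited log2 intensities of the arrays, and a gene was tested when it lay above the median of all values, 6.86, in at least 3 of the 15 arrays. This filter kept 11885 genes and all 10 regulators. A log2 value depends on the probe set as well as on the RNA, so levels are compared only within a gene. The first-numbered pool of each day stood apart from pools 2 and 3, with an interquartile range of log2 values of 2.14 to 2.27 against 2.52 to 2.77. With day in the limma model, 5048 of 11885 genes differed between the first-numbered pools and the others at an adjusted p under 0.05, and so did 8 of the 10 regulators, which read lower in the first-numbered pools by 0.36 (Meox2) to 0.88 (Cited1) on the log2 scale. Meox1 differed by -0.23 (adjusted p = 0.20) and Uncx by -0.16 (adjusted p = 0.075) in the same model. Results are therefore also given within each pool number, the replicate number of the labels. The labelled compartments were set beside marker lists that hold none of the 10 regulators. These lists were chosen with earlier results of these data known, and the cap mesenchyme list holds Crym. They are therefore no independent check of the labels. Of 9 cap mesenchyme markers, 8 were lower at P4 and 0 higher, and of 10 renal vesicle markers, 8 were higher and 0 lower. Of all genes, 2.32% were lower and 3.41% higher by this test. These markers also moved before P4: over P0 to P3 the slope of 6 renal vesicle markers was upward and of 4 cap mesenchyme markers downward, with 0 in the opposite directions. The slope of 1.65% of all genes was upward and of 1.48% downward. The mean log2 value of the renal vesicle markers was 7.51 to 7.97 at P0, 8.66 to 9.42 at P3 and 9.12 to 9.85 at P4, and that of the cap mesenchyme markers was 10.13 to 10.34, 9.50 to 9.68 and 8.26 to 8.58. Between P3 and P4, 1 of the 10 renal vesicle markers passed as higher and 4 of the 9 cap mesenchyme markers as lower. In this step 1.04% of all genes passed as higher and 0.446% as lower. The part of a changing mix of the 2 compartments in the steps of the regulators was not tested.

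The start regions of Cited1, Cited2 and Meox2 are shown because these are the members of the paralogue pairs with an entry in the RefSeq table used here, and because Cited1 and Meox2 were lower at P4 by the test described further on while Cited2 did not pass it. Each run is the 250 bases immediately upstream of the most upstream annotated transcription start in mouse build GRCm38.p6, read 5′ to 3′ on the strand of the gene, with matches to 5 short motifs in capitals. Cited1 spans chrX:102247378-102252181 and its window is chrX:102252182-102252431 on the minus strand. Cited2 spans chr10:17723228-17725674 and its window is chr10:17722978-17723227 on the plus strand. Meox2 spans chr12:37108540-37179534 and its window is chr12:37108290-37108539 on the plus strand.
Cited1: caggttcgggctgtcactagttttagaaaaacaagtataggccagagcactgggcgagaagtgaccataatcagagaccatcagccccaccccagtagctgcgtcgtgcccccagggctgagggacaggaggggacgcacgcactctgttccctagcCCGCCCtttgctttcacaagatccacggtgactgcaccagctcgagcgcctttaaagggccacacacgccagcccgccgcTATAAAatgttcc
Cited2: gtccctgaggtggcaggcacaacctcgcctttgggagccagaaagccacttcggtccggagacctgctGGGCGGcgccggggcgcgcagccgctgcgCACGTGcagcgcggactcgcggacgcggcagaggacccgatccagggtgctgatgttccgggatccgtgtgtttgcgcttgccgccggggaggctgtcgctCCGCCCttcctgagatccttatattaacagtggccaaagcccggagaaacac
Meox2: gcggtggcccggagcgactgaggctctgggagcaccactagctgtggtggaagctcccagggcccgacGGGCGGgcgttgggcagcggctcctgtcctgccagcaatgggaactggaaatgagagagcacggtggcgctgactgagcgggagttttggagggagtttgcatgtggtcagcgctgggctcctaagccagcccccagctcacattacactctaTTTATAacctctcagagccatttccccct
The motifs, searched on both strands, were the TATA box TATAAA, the CCAAT box CCAAT, the GC box GGGCGG, the core of the hypoxia response element ACGTG and the TCF/LEF core TCAAAG. They are held by 13.0%, 34.5%, 33.0%, 16.5% and 14.1% of 27025 RefSeq windows of the same length. The Cited1 window held TATAAA with its first base 13 bases upstream of the start and a GC box 93 bases upstream on the other strand. The Cited2 window held GC boxes 182 and 52 bases upstream, and a CACGTG at 153 bases that reads as ACGTG on either strand, so that its 2 matches overlap. The Meox2 window held TATAAA on the other strand 29 bases upstream and a GC box 182 bases upstream. The Cited2 window held 26 CpG dinucleotides, against 13 for Cited1, 12 for Meox2 and a median of 6 over all windows. These matches describe letters only, and no binding was measured. Of the other regulators with an entry, Sall1 held CCAAT and TCAAAG, Uncx held CCAAT and Pax2 held none of the 5 motifs. Meox1, Osr1, Osr2 and Wt1 were not analysed here for sequence. In the same build Meox1 spans chr11:101877510-101894354, Osr1 spans chr12:9574442-9581500 and Osr2 spans chr15:35296098-35303305. Sall1 spans chr8:89027242-89044162, Wt1 spans chr2:105126529-105173614, Pax2 spans chr19:44746601-44838269 and Uncx spans chr5:139543865-139548179.

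The 10 regulators are given here by their result in the test of P4 against P0 to P3. Meox1, Meox2, Cited1 and Osr1 were lower at P4 than over P0 to P3, Osr2 was higher, and Cited2, Sall1, Wt1, Pax2 and Uncx did not pass the test. By limma with Benjamini-Hochberg adjustment over all genes tested, 5 of the 10 passed an adjusted p of 0.05, with 1 higher and 4 lower, against 5.73% of all genes (3.41% higher and 2.32% lower). The median log2 difference of the 10 was -0.16, and that of all genes was 0.0041. In a test of any difference among the 5 days, which 5.37% of all genes passed, Meox1 (adjusted p = 6.63e-06), Meox2 (2.3e-05), Cited1 (0.0038) and Osr2 (0.0081) passed by limma and Osr1 did not (0.10).

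**Figure D1:**
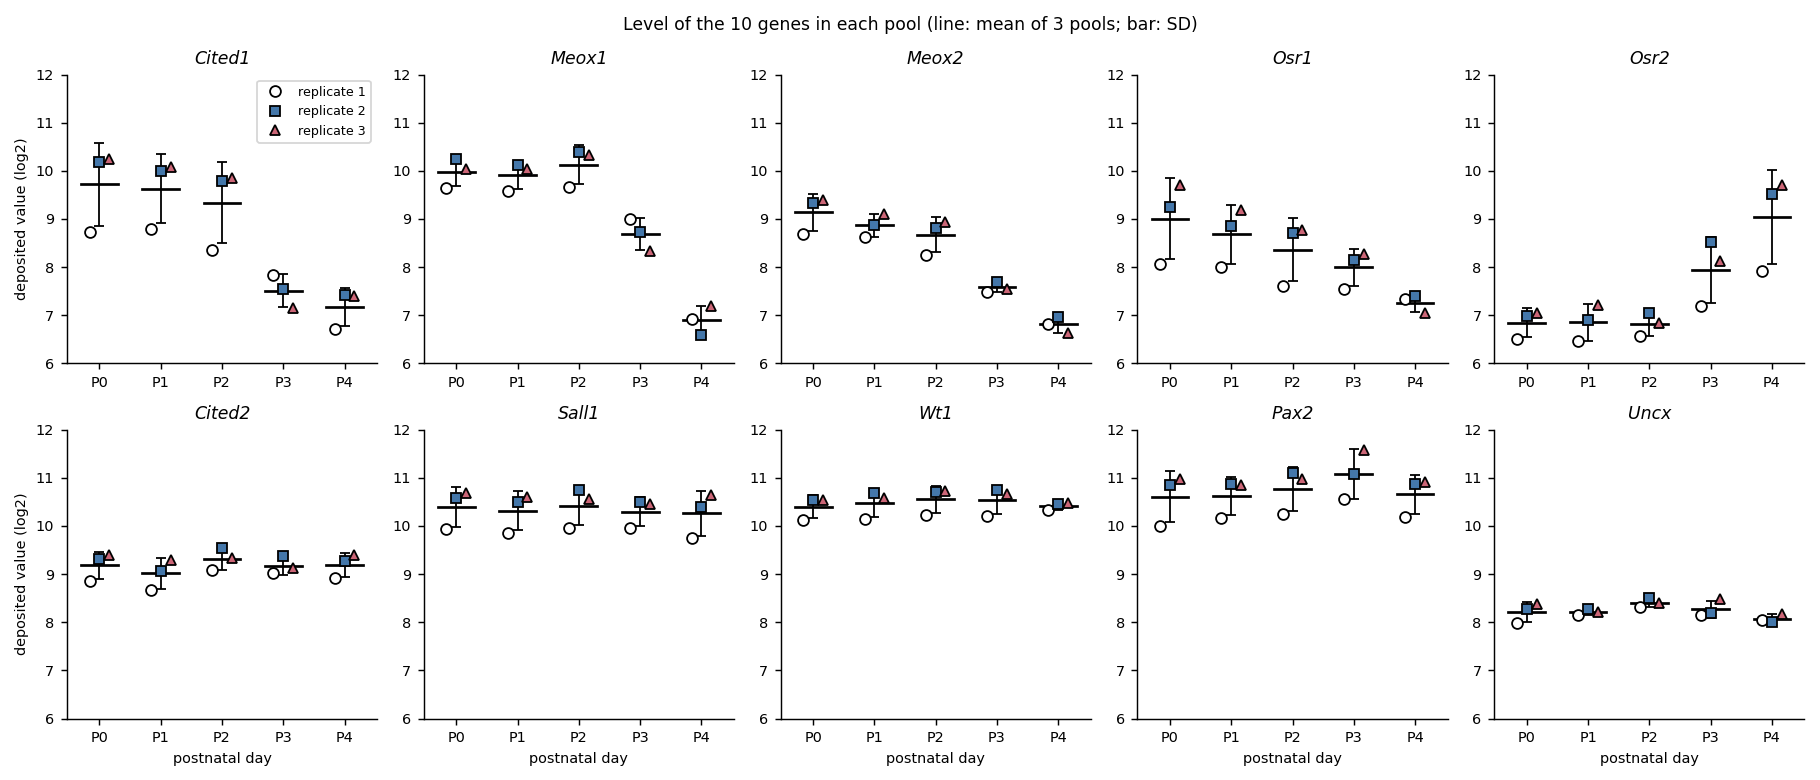
Deposited log2 value (y axis) of each of the 10 genes by postnatal day (x axis). Symbols are single pools by replicate number, lines are the means of 3 pools and bars are SD. Meox1, Meox2, Cited1 and Osr1 descend to P4, Osr2 ascends from P3, and the lower row stays within about the spread of its pools, while the open circles of the first-numbered pools lie mostly below the others.

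Meox1, a homeobox factor that marks the cap, had the largest fall of the 10. Its log2 values in pools 1, 2 and 3 were 9.65, 10.24 and 10.04 at P0, 9.59, 10.12 and 10.04 at P1, and 9.67, 10.39 and 10.32 at P2. They were 9.00, 8.73 and 8.33 at P3 and 6.92, 6.60 and 7.18 at P4. The 3 earliest days overlapped one another, every P3 pool lay below every earlier pool, and every P4 pool lay below every P3 pool. Meox1 was 6.84-fold lower at P4 than over P0 to P3 (log2 difference -2.77, SE 0.19, limma adjusted p = 9.15e-07), and the differences within pool numbers 1, 2 and 3 were -2.55, -3.27 and -2.50. It was also the only regulator that passed the test between P3 and P4, where 1.49% of all genes passed (1.04% up and 0.446% down), with a 3.44-fold fall (log2 difference -1.78, SE 0.24, limma adjusted p = 0.0014). Between P2 and P3, where 0.143% of all genes passed (0.0757% up and 0.0673% down), Meox1 was the only one of the 10 to pass without a block, while Cited1, Meox2 and Osr2 passed as well with the pool number as a block. Meox1 had a 2.72-fold fall in this step (log2 difference -1.44, SE 0.24, limma adjusted p = 0.030). That last call was lost with median-centred arrays (adjusted p = 0.076) and without pool 3 of P0, pool 2 of P1, or pool 2 or 3 of P2 or P3 (adjusted p up to 0.19), while with the pool number as a block its adjusted p was 0.0032. Its slope over P0 to P3 was -0.37 per day (SE 0.08, limma adjusted p = 0.016), which did not pass without pool 2 or 3 of P0 or pool 3 of P3 (adjusted p up to 0.072).

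Meox2, the paralogue of Meox1, had a lower mean on each later day. Its log2 values were 8.69, 9.34 and 9.38 at P0, 8.62, 8.88 and 9.10 at P1, and 8.26, 8.82 and 8.95 at P2. They were 7.49, 7.69 and 7.55 at P3 and 6.82, 6.97 and 6.63 at P4. As for Meox1, the 3 P3 pools lay below all 9 earlier pools and the 3 P4 pools below all P3 pools. Meox2 was 3.38-fold lower at P4 than over P0 to P3 (log2 difference -1.76, SE 0.17, limma adjusted p = 9.85e-06), with differences of -1.44, -1.71 and -2.11 within pool numbers 1, 2 and 3. Its slope over P0 to P3 was -0.49 per day (SE 0.07, limma adjusted p = 0.0011), and it fell in each pool number, by 0.39, 0.50 and 0.57 a day. The step from P2 to P3 was -1.10 (SE 0.21), which missed the threshold without the pool number in the model (adjusted p = 0.066) and passed it with the pool number as a block (limma adjusted p = 0.0018). The difference between P3 and P4 was -0.77 (SE 0.21, limma adjusted p = 0.12), or an adjusted p of 0.0075 with the first-numbered pools as a block.

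Cited1, a transcriptional coactivator that marks the uncommitted cap, had the largest step of its day means between P2 and P3. Its log2 values were 8.73, 10.19 and 10.24 at P0, 8.80, 10.00 and 10.08 at P1, and 8.36, 9.79 and 9.85 at P2. They were 7.83, 7.54 and 7.14 at P3 and 6.72, 7.42 and 7.39 at P4. All P3 pools lay below all 9 earlier pools, the P3 and P4 pools overlapped, and the first-numbered pool was the lowest of the 3 at P0, P1, P2 and P4 but the highest at P3. The P4 difference of -1.87 (SE 0.37, limma adjusted p = 0.0059) was -1.71, -1.96 and -1.94 within pool numbers 1, 2 and 3, and 1 of 3 P4 pools lay below all 12 earlier ones. Its slope over P0 to P3 was -0.69 per day (SE 0.15, limma adjusted p = 0.020), which missed the threshold without pool 2 or 3 of P0 or P3 (adjusted p up to 0.096) and passed it with the pool number as a block (adjusted p = 3.93e-04). The P2 to P3 step was -1.83 (SE 0.47), with an adjusted p of 0.22 without a block and 0.0071 with the pool number as a block, and was -0.53, -2.24 and -2.71 within pool numbers 1, 2 and 3. Between P3 and P4 the estimate was -0.33 (95% interval -1.33 to 0.67, limma adjusted p = 1.00).

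Osr1, a zinc finger factor required to form the metanephric mesenchyme, had a lower mean on each later day. Its log2 values were 8.07, 9.26 and 9.70 at P0, 8.01, 8.85 and 9.19 at P1, and 7.61, 8.71 and 8.77 at P2. They were 7.55, 8.15 and 8.28 at P3 and 7.33, 7.39 and 7.04 at P4. Neighbouring days overlapped up to P3, and the 3 P4 pools lay below all 12 earlier ones. The difference at P4 was 2.39-fold (log2 difference -1.26, SE 0.32, limma adjusted p = 0.033), and it was -0.48, -1.35 and -1.95 within pool numbers 1, 2 and 3. This call was the least stable of the 5, since it was lost with median-centred arrays (adjusted p = 0.052) and without any of pool 2 of P0, P1, P2 or P3, pool 3 of P2, or any pool of P4 (adjusted p up to 0.19), and the first-numbered pools as a block gave an adjusted p of 3.11e-04. Its slope over P0 to P3 was -0.34 per day (SE 0.13), with a limma adjusted p of 0.26 without and 0.012 with the pool number as a block.

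Osr2, the zinc finger paralogue of Osr1, was the only one of the 10 that was higher at P4 by the test. Its log2 values were 6.51, 6.99 and 7.04 at P0, 6.45, 6.90 and 7.22 at P1, and 6.56, 7.05 and 6.84 at P2, on both sides of the filter median of 6.86. The table holds no detection call, so that folds against these days may be too small. They were 7.19, 8.52 and 8.12 at P3 and 7.92, 9.51 and 9.70 at P4. Pools 2 and 3 of P3 lay above all 9 earlier pools, pools 2 and 3 of P4 lay above all 12 earlier ones, and the first-numbered pool was the lowest of the 3 on every day. Osr2 was 3.80-fold higher at P4 than over P0 to P3 (log2 difference 1.93, SE 0.33, limma adjusted p = 0.0018), with differences of 1.24, 2.15 and 2.40 within pool numbers 1, 2 and 3. Its slope over P0 to P3 was 0.32 per day (SE 0.13), with a limma adjusted p of 0.29 without and 0.010 with the pool number as a block. The P2 to P3 step was 1.13 (SE 0.41, adjusted p = 0.68) and passed with the pool number as a block (limma adjusted p = 0.022). From P3 to P4 the difference was 1.10 (SE 0.41, adjusted p = 0.41), or an adjusted p of 0.011 with the first-numbered pools as a block.

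For Meox1, Meox2 and Osr1 all 3 P4 pools lay below all 12 earlier pools, a pattern that 1.4% of all genes showed. For no regulator did all 3 P4 pools lie above all 12, against 2.38% of all genes. All 3 P3 pools lay below all 9 pools of P0 to P2 for Cited1, Meox1 and Meox2, against 1.49% of all genes. For none did all 3 P3 pools lie above those 9, against 2.07% of all genes.

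**Figure D2:**
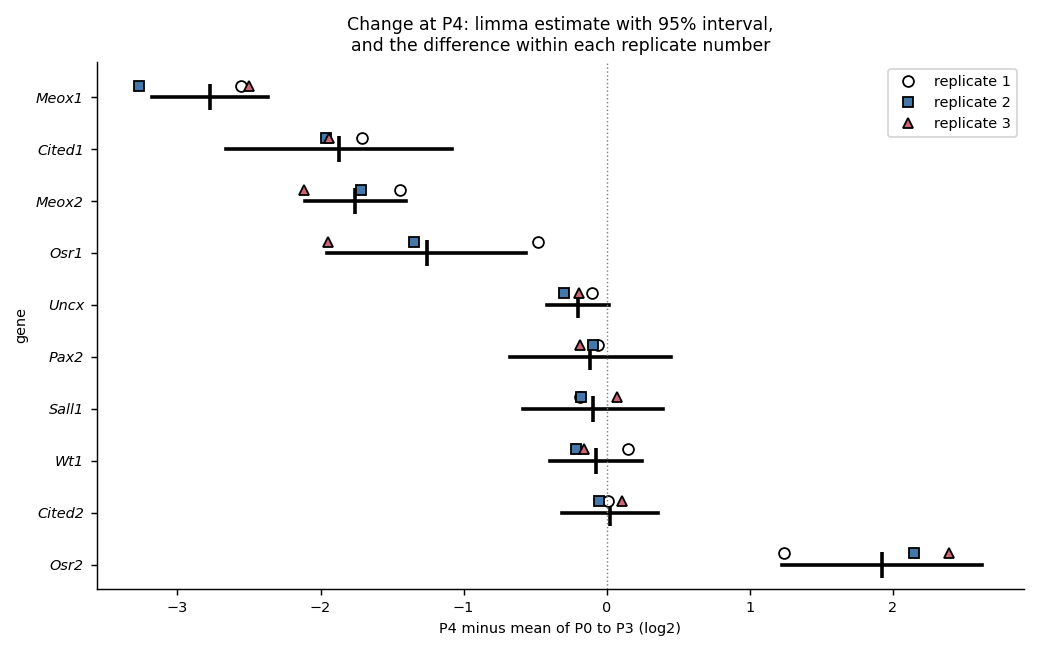
Log2 difference of P4 from the mean of P0 to P3 (x axis) for each gene (y axis), as the limma estimate (vertical tick) with its 95% interval (bar) and the difference within each replicate number (symbols). The intervals of Meox1, Cited1, Meox2 and Osr1 lie below 0 and that of Osr2 above it, and the 5 other intervals span 0.

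The remaining 5 regulators passed no test in the fit without a block. Sall1, a zinc finger repressor required for outgrowth of the ureteric bud, ranged from 9.85 to 10.74 over the 12 P0 to P3 pools and was 9.74, 10.39 and 10.65 at P4. Wt1, the zinc finger product of the Wilms tumour gene, ranged from 10.13 to 10.74 and was 10.33, 10.45 and 10.47 at P4. Pax2, a paired-domain factor without which no kidney forms, ranged from 10.00 to 11.59 and was 10.18, 10.88 and 10.91 at P4. In these 3 genes at least 2 of 3 P4 pools lay inside the earlier range, and the first-numbered P4 pool of Sall1 was its lowest value of all. Cited2, which competes with HIF1A for CBP and p300, ranged from 8.67 to 9.55 and was 8.92, 9.27 and 9.40 at P4. Uncx, a homeobox factor known from patterning of the vertebrae, ranged from 7.99 to 8.50 and was 8.05, 8.01 and 8.17 at P4. Over these 5 genes the P4 differences ran from -0.20 (Uncx, 95% interval -0.42 to 0.02) to 0.02 (Cited2, 95% interval -0.31 to 0.36), with limma adjusted p from 0.41 to 0.99. The widest interval was that of Pax2 (-0.68 to 0.45), and with these pools a change of any size within each gene's own interval remains possible.

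Over P0 to P3, 3 of the 10 regulators (Meox2, Meox1 and Cited1) had a slope that passed by limma, all downward, against 3.13% of all genes (1.65% up and 1.48% down). With the pool number as a block, 6 passed, adding Osr1 downward and Osr2 and Pax2 upward, against 8.49% of all genes (4.01% up and 4.48% down). The step from P2 to P3 was passed by 4 of the 10 with this block (Cited1, Meox1 and Meox2 downward and Osr2 upward), against 1.21% of all genes (0.799% up and 0.412% down). The step from P3 to P4 was passed by 3 with the first-numbered pools as a block (Meox1 and Meox2 downward and Osr2 upward), against 3.35% (2.16% up and 1.19% down). Pax2 had its highest mean at P3, with log2 values of 10.56, 11.08 and 11.59 there against 10.00, 10.85 and 10.99 at P0. The P3 and P0 pools overlapped between pool numbers, but within each number the P3 value was the higher. Its slope was 0.15 per day (SE 0.11), with an adjusted p of 0.68 without and 0.015 with the pool number as a block, and the call was lost with pools 2 and 3 only (0.14 per day, limma adjusted p = 0.22), unlike the slopes of Osr1 and Osr2. Its P4 values were within the range of P0 to P2. None of the 10 passed between P0 and P1, where no gene of all 11885 did (0%; 238 at an unadjusted p under 0.05), or between P1 and P2 (0.0841% of all genes, 0.0589% up and 0.0252% down). None of the 10 had an unadjusted p under 0.05 in either of these comparisons by limma.

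Ordered by the day means, Meox1 ran from 10.13 (P2) through 9.97 (P0) and 9.91 (P1) to 8.69 (P3) and 6.90 (P4). The first 3 means did not differ beyond the spread of the pools (SD 0.28 to 0.40), while the steps from P2 to P3 and from P3 to P4 passed the test. Meox2 descended from 9.14 at P0 through 8.87 and 8.67 to 7.58 at P3 and 6.81 at P4, with SDs of 0.10 to 0.39, and its neighbours up to P2 overlapped. Cited1 descended from 9.72 through 9.63, 9.33 and 7.51 to 7.18, and its neighbours overlapped except for P2 and P3. Osr1 descended from 9.01 through 8.68, 8.36 and 7.99 to 7.25, and only P4 did not overlap its neighbour. Osr2 stood at 6.82 to 6.86 over P0 to P2, at 7.94 at P3 and at 9.04 at P4, with an SD of 0.98 at P4 that was its widest.

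Each paralogue pair was then followed as the difference of its 2 log2 values within an array, which removes what the array does to both genes alike. The sign of such a difference depends on the probe sets, so only its change between days is read. Osr1 and Osr2 moved in opposite directions. Their difference was 1.56, 2.27 and 2.65 in pools 1, 2 and 3 at P0, 1.55, 1.95 and 1.97 at P1, and 1.05, 1.66 and 1.94 at P2. It was 0.37, -0.37 and 0.16 at P3 and -0.59, -2.11 and -2.66 at P4. The days P0 to P2 overlapped, all P3 values lay below them, and all P4 values lay below those of P3. The change from P0 to P3 to P4 was -3.18, with a p of 0.0022 in a two-sided exact permutation test over 455 assignments of the pools, which is the smallest p it can give, and an adjusted p of 0.0036 over the 6 tests of the 3 pairs. Within pool numbers 1, 2 and 3 the change was -1.72, -3.49 and -4.34. The slope over P0 to P3 was -0.66 per day (exact permutation p = 5.19e-04, adjusted p = 0.0031).

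Cited1 and Cited2 also changed unequally, and Cited2 on its own passed no test. Their difference was -0.13, 0.88 and 0.85 at P0, 0.13, 0.92 and 0.79 at P1, and -0.72, 0.24 and 0.52 at P2. It was -1.18, -1.82 and -1.99 at P3 and -2.20, -1.85 and -2.01 at P4. All values of P3 and P4 lay below all earlier ones, and the ranges of P3 and P4 overlapped. The change at P4 was -1.89 (exact permutation p = 0.0044, adjusted p = 0.0053 over 6 tests), and -1.72, -1.91 and -2.05 within pool numbers 1, 2 and 3. Without the first-numbered pools, where only 45 assignments remain, it was -1.98 with an adjusted p of 0.053. The slope over P0 to P3 was -0.72 per day (exact permutation p = 0.0024, adjusted p = 0.0036).

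Meox1 and Meox2 were both lower at P4, where their means of 6.90 and 6.81 lay about at the median of all values, 6.86, used as the filter. Their difference was 0.96, 0.90 and 0.65 at P0, 0.97, 1.24 and 0.93 at P1, and 1.41, 1.58 and 1.38 at P2. It was 1.51, 1.04 and 0.79 at P3 and 0.10, -0.37 and 0.55 at P4. All 3 P4 values lay below all 12 earlier ones, the P2 values lay above those of P0 and P1, and the P3 values overlapped those of all earlier days. The change of the difference at P4 was -1.02 (exact permutation p = 0.0022, adjusted p = 0.0036 over 6 tests), with changes of -1.11, -1.56 and -0.38 within pool numbers 1, 2 and 3. With both genes about at that level, the size of the change depends on where each probe set started, with means of 9.68 for Meox1 and 8.56 for Meox2 over P0 to P3. Over P0 to P3 the slope of their difference was 0.12 per day and did not pass (exact permutation p = 0.12, adjusted p = 0.12).

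**Figure D3:**
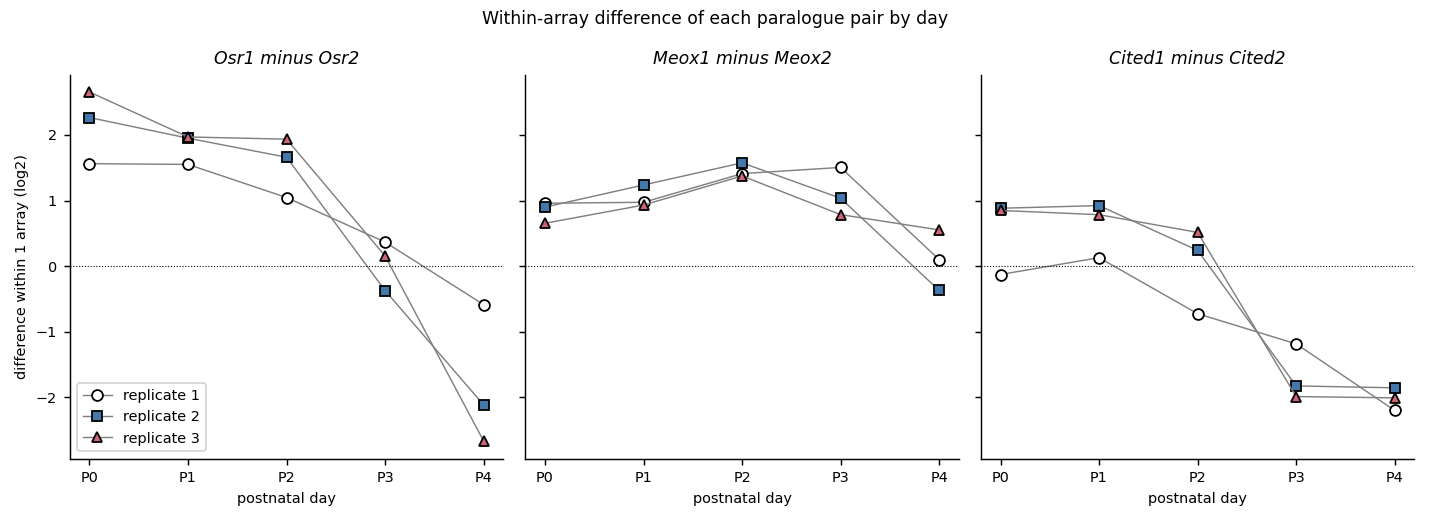
Difference of the log2 values of each paralogue pair within 1 array (y axis) by postnatal day (x axis), with 1 line for each replicate number. The Osr1 minus Osr2 line descends through 0 at about P3, the Meox1 minus Meox2 line is lowest at P4 in all 3 replicate numbers, and the Cited1 minus Cited2 line drops between P2 and P3.

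Likeness of pattern was described by Pearson's r over the 15 arrays after the mean of each pool number had been removed. Points of 1 array share its library and normalization, and arrays of 1 day share their group, so these values carry no test. Among the regulators, Meox2 ran closest to Cited1 (r = 0.95), Meox1 (0.94) and Osr1 (0.94), and Osr2 ran opposite to Meox1 (-0.96), Meox2 (-0.96), Osr1 (-0.91) and Cited1 (-0.91). Cited2, by contrast, had an r of 0.01 with Cited1, and Wt1 had an r between -0.29 (Osr2) and 0.54 (Uncx) with the other 9. Of all genes tested, the nearest to Meox1 were Crym (0.98), which drives the reporter used for sorting, Six2 (0.98), the factor that holds progenitors undifferentiated, and Spock2 (0.98). The nearest to Meox2 were Zeb1 (0.99), a repressor of epithelial genes, Hmcn1 (0.98) and Tgfbi (0.98), an extracellular matrix protein. Cited1 ran with Bcl2 (0.98), an inhibitor of apoptosis, Tcf7l1 (0.97) and Etv1 (0.97), and Osr1 ran with Negr1 (0.96), Tshz2 (0.96) and Shisa3 (0.96). Osr2 ran with Pygl (0.98), the liver glycogen phosphorylase, Car4 (0.97), a membrane carbonic anhydrase, and Sox9 (0.97), a factor of the ureteric bud and early nephron. For the regulators without a called change the nearest genes followed small deviations only, as with Ppargc1b for Pax2 (0.94), Mogs for Cited2 (0.92), Zfp628 for Uncx (0.91), Ado for Sall1 (0.90) and Gpr75 for Wt1 (0.85).

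**Figure D4:**
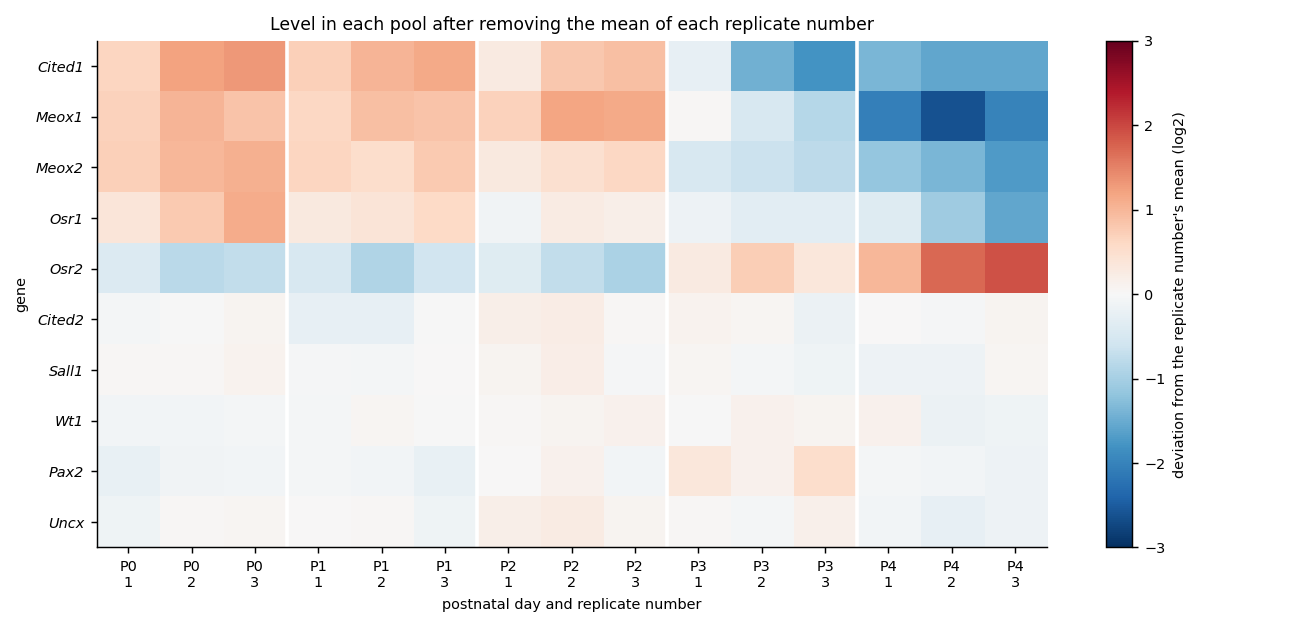
Deviation of each log2 value from the mean of its replicate number (colour, red above and blue below) for the 10 genes (y axis) in the 15 pools ordered by postnatal day and replicate number (x axis). The 4 falling genes turn from red to blue at P3 or P4, except that Osr1 is already at -0.10 in pool 1 of P2. Osr2 turns from blue to red, while the other 5 genes stay pale.

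Genes that act with these regulators were followed from lists of partners and targets. Counts at P4 stand against 3.41% of all genes higher and 2.32% lower than over P0 to P3. Of 5 tested genes of the list around the Hox11, Eya1 and Pax2 complex, which switches on Six2 and Gdnf in the metanephric mesenchyme, 4 were lower at P4 and 0 higher by limma. Six2 fell by 2.15 on the log2 scale (adjusted p = 1.39e-06), with differences of -2.05 for Eya1, a transcriptional coactivator and phosphatase, -1.07 for Gdnf, the growth factor that draws out the ureteric bud, and -0.55 for Hoxa11. Hoxd11 had a difference of -0.27 that did not pass (adjusted p = 0.42). The median of the list was -1.07, against 0.0041 over all genes, and Six2, Eya1, Gdnf and Hoxa11 are also among the cap mesenchyme markers. Pax2, the third partner of the complex, had the difference of -0.11 given above. Of 7 tested CITED partners, Tfap2b and Tfap2a, AP-2 factors that CITED proteins coactivate, were higher at P4. Tfap2b lay at 5.71 to 6.37 in the 12 earlier pools and at 8.08 to 8.61 at P4, and Tfap2a at 6.0 to 7.63 and at 8.57 to 8.76. With 12 and 11 of the 12 earlier pools under the filter median, these genes entered the test mainly through P4, and no size of their change is given. The coactivator genes Crebbp (-0.10) and Ep300 (-0.06), and Hif1a (-0.36, adjusted p = 0.26), did not pass, and the median of the list was -0.06. Of 12 NuRD genes, whose complex is recruited by SALL1, none passed by limma and none had an unadjusted p under 0.05. The same held for 11 PAX2 partners, which are Tle4 and genes of the PTIP and KMT2 complex that PAX2 recruits to chromatin. The median was 0.01 in each of these lists. Of 7 tested WT1 targets, Sulf1 (0.80), Podxl and Wnt4 (0.56, limma adjusted p = 0.0495) were higher at P4. Fgf20 (-0.84), a growth factor of the progenitors, was lower, and the median of the list was 0.33. The P4 values of Sulf1 (9.20 to 9.77) and Wnt4 (8.67 to 9.26) lay inside their ranges over P0 to P3 (8.10 to 9.86 and 7.91 to 9.35). Between P3 and P4, 0 of the 7 passed by limma (2 at an unadjusted p under 0.05). Over P0 to P3 the slope of 2 was upward and of 0 downward, against 1.65% and 1.48% of all genes. Podxl lay at 6.53 to 7.32 in the 12 earlier pools, 10 of them under the filter median, and at 7.09 to 7.53 at P4. It passed the filter only with its P4 values, so no size of its change is given. Of 7 tested relatives and cofactors of the 10 regulators, Meis2 (-1.38) and Meis1 (-0.78) were lower, Sall3 (0.47, adjusted p = 0.012) was higher, and Pax8, which acts with Pax2, had a difference of 0.92 that did not pass (adjusted p = 0.15), with a median of -0.08. Hoxa11, Hoxd11, Crebbp, Ep300, Wnt4 and Pax8 were named after their values were seen.

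Markers of other kidney cells were read beside these changes, and at P4 3.41% of all genes were higher and 2.32% lower. Of 7 tested stromal markers, 1 (Foxd1, log2 difference -0.74) was lower at P4 and 0 higher, and the mean log2 value of the 9 on the array was 7.28 to 7.36 at P0, 6.94 to 7.09 at P2, 6.80 to 7.0 at P3 and 6.94 to 7.17 at P4. Over P0 to P3, where Meox1, Meox2 and Cited1 fell too, the slope of 3 of the 7 (Foxd1, Pdgfra and Dcn) was downward by limma and of 0 upward. By the same test 1.48% of all genes had a downward and 1.65% an upward slope. Of 6 tested ureteric bud markers, Krt8 (0.67) was higher at P4, and so was Gata3, which lay at 5.74 to 6.41 in all 12 earlier pools, under the median used as the filter, and at 7.57 to 8.34 at P4, so that it entered the test only through its P4 values, while Ret, Wnt11 and Calb1 were under the filter. The mean of the 9 was 6.67 to 7.08 over P0 to P3 and 7.21 to 7.38 at P4. Of the podocyte markers, which matter for Wt1, Nphs1, Synpo and Ptpro were under the filter. Ptpro still lay at 5.73 to 6.21 in the 12 earlier pools and at 6.79 to 7.02 at P4. Podxl was higher but passed the filter only with its P4 values, and Tcf21 did not pass the test (mean 9.17 over P0 to P3 and 9.51 at P4). The mean of the 5 on the array was 6.85 to 7.16 over P0 to P3 and 7.17 to 7.46 at P4. Of the endothelial markers 6 of 7 were under the filter, including Pecam1 and Cdh5, and Ramp2 was lower at P4. Of the macrophage markers 4 of 5 were under the filter, and Cd68 did not pass. Of the 2 erythroid markers tested, none passed by limma at either an adjusted or an unadjusted p of 0.05. The part of these cells in the changes of Osr1, Osr2 and the other regulators was not tested.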

How the data were processed

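The members of this gene set, the partner and marker lists and the tests were chosen with earlier results of these data known. Per the labels, RNA of each pool of sorted cells went through 1 round of WT-Ovation Pico amplification, was biotin-labelled and was hybridised to an Affymetrix array, and the submitters' processing notes name Affymetrix Expression Console without a version. As deposited by the authors, the data were 1 table of log2 values for 35557 probe sets in 15 samples, with no scanner files used here. The values ran from 2.38 to 13.76 and the array medians from 6.80 to 6.92, and how Expression Console summarized the probes was not stated. No normalization was added, and no spread or background per spot is in the table. The number of arrays and the difference of the first-numbered pools from the others limit the precision.

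Probe sets were named through the platform annotation. Of all probe sets, 21789 had 1 symbol, 1621 had several, and 12147 were not named here. By gene identifier 21698 of those with 1 symbol matched a current RefSeq gene (GRCm38.p6), and 0 symbols changed. Where a gene had several probe sets (999 of 19938 genes), that with the highest mean was used.

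Day means were fitted to all 15 arrays with limma 3.58.1 in R 4.3.3 (lmFit, contrasts, eBayes, two-sided), with p-values adjusted by Benjamini-Hochberg over the 11885 genes kept and a threshold of 0.05. The contrasts were P4 against the average of the 4 earlier day means, the slope over P0 to P3, the 4 steps between neighbouring days and an F test over all days. Paralogue differences were tested by exact permutation of the pools (two-sided, adjusted over 6 tests) in Python 3.11.15. The test scripts were tested on simulated data. All 10 regulators are named whatever their values, with the most correlated genes of each (3 for those called at P4, 1 for the others), and from each list up to 3 genes of smallest p. Over P0 to P3, deviations from the day means correlated above 0.1 in 18 of 18 pairs of same-numbered pools (lowest 0.14). Over all 5 days they did so in 29 of 30 pairs (lowest 0.078). The number was taken as a block beside results over P0 to P3 because all pairs there passed 0.1. Deviations cancel out within a day, so the offset of the first-numbered pools can by itself make the other pools correlate between days. Only same-numbered pairs were compared, so this check cannot tell whether the numbers pair the pools beyond that offset. Alternatives covered normalization, filters, blocks, array weights, the variance model and single pools left out.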

Additional observations from a re-analysis of the deposited data

How the results depend on the processing

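Of 1049 values of the regulators and paralogue pairs under other settings, 961 kept their direction and their side of the threshold, 24 lost the call, 33 gained it and 31 changed sign. The count of 5 regulators called at P4 against P0 to P3 was 1 when only genes above the median in all 15 arrays were tested, where 371 of 8656 genes were called. By its construction this filter keeps 6 of the 10 and leaves out Cited1, Meox1, Meox2 and Osr2. Under it 0 regulators were called for the slope, for P4 against P3, for P3 against P2 and among the 5 days. Of the 8656 genes, 208, 68, 10 and 370 were called in these. With the first-numbered pools as a block the counts were 6 for the slope, 3 for P4 against P3 and 4 for P3 against P2, and the replicate block gave the same counts of 6, 3 and 4. For P4, where the numbers were not taken to pair the pools, the replicate block kept the count of 5 against P0 to P3 and called 1435 of all genes in place of 681, and against P3 it gave adjusted p = 0.0093 for Meox2 and 0.013 for Osr2 by limma. With replicates 2 and 3 only the counts were 5 for the slope, 4 for P4 against P3 and 4 for P3 against P2. Of all 11885 genes, 401, 159 and 83 passed these tests in that setting. Quantile normalization gave 2 for P4 against P3 (211 of all genes) and 2 for P3 against P2 (43 of all genes). For P3 against P2, median-centred arrays gave 0 (8 of all genes) and array weights 3 (153 of all genes). The cause of these shifts was not tested.

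With single pools left out, the counts ran from 4 to 5 at P4 against P0 to P3, from 1 to 3 for the slope (1 without pool 2 or 3 of P0 or pool 3 of P3), from 1 to 2 for P4 against P3 and from 0 to 2 for P3 against P2. Of all 11885 genes, 417 to 770, 183 to 381, 99 to 187 and 1 to 55 passed these tests. Values that changed sign were all uncalled. Cited2 was -0.0128 at P4 against P0 to P3 and -0.0063 against P3 with array weights, and its slope was -0.0035 with replicates 2 and 3 only. With those replicates only, Cited1 was 0.0610 and Sall1 0.0506 at P4 against P3, where Sall1 was 0.0093 with quantile normalization, and Wt1 was 0.0144 for P3 against P2 with median-centred arrays. With single pools left out, Cited2 ran from -0.0786 to 0.16 at P4 against P0 to P3, from -0.0772 to 0.16 against P3 and from -0.0216 to 0.0585 for its slope. Sall1 ran from -0.29 to 0.16, from -0.23 to 0.22 and from -0.0910 to 0.0312 for these, and from -0.35 to 0.0501 for P3 against P2. Pax2 ran from -0.24 to 0.12 at P4 against P0 to P3 and Wt1 from -0.17 to 0.15 for P3 against P2. The slope of Meox1 minus Meox2 ran from 0.0861 to 0.19, and 1 of its 12 values passed (exact permutation, lowest adjusted p = 0.016). The change of Cited1 minus Cited2 at P4 with replicates 2 and 3 only was -1.98 (exact permutation, adjusted p = 0.053).

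Over all genes, the count at P4 against P0 to P3 was 371 under the stricter filter, 1363 with the first-numbered pools as a block, and 417 and 429 without pool 2 and pool 3 of P4. The stricter filter tested 8656 genes and the other settings given here tested 11885, so that its counts have a smaller base. The stricter filter, the block of first-numbered pools and the replicate block called 208, 918 and 1009 genes for the slope (372 without them), 68, 398 and 422 for P4 against P3 (177), 10, 146 and 144 for P3 against P2 (17), 16, 103 and 114 for P2 against P1 (10) and 370, 1386 and 1483 among the 5 days (638). The 2 blocks called 19 and 20 for P1 against P0 (0). With array weights the counts were 312 for P2 against P1, 153 for P3 against P2 and 1011 among the 5 days. With single pools left out they ran from 1 to 55 for P3 against P2 (1 without pool 2 or 3 of P3, 55 without pool 1 of P3), from 0 to 23 for P2 against P1, from 183 (without pool 3 of P0) to 381 for the slope and from 99 (without pool 3 of P4) to 187 for P4 against P3. The alternative of other probe sets was not run, since each regulator had 1. Trend and robust settings in limma changed no call of a regulator. With 3 pools a day, a change within the own interval of an uncalled gene remains possible.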
